A study of Caenorhabditis elegans with 2 samples.

Results

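The 81 histone genes of Caenorhabditis elegans were examined for binding of LET-526, the worm ortholog of ARID1 and a subunit of the SWI/SNF (BAF) chromatin remodelling complex. They were the protein-coding genes of the WBcel235 annotation whose symbol is his- or hil- followed by a number, together with htz-1, out of 19973 protein-coding genes on the 6 nuclear chromosomes. Binding was measured by chromatin immunoprecipitation with sequencing (ChIP-seq) with an antibody against GFP in strain RW12306, in which CRISPR placed a TY1, EGFP and 3xFLAG tag on let-526. There was 1 group, whole young adult animals at 60 h from cultures synchronised by bleaching and L1 starvation, with 2 biological replicates. All animals carried the tag, and no control library was analysed here. Whole animals mix every tissue, so binding in few cells and weak binding in many cells cannot be told apart.

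Histones form the nucleosome, in which DNA wraps around an octamer of H2A, H2B, H3 and H4, and linker histone H1 binds where the DNA enters and leaves. In animals the core genes are repeated, are expressed mainly during DNA replication, and give mRNAs that end in a conserved hairpin in place of a poly(A) tail. Variants such as H3.3 and H2A.Z come from separate genes and are put into chromatin outside replication as well. SWI/SNF complexes slide or evict the nucleosomes built from these proteins.

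Each deposited peak list gives each peak a signal in the units of its caller, comparable within a list only, and a score of at most 1000 that follows the irreproducible discovery rate (IDR). The optimal list holds the 1200 peaks of both replicates together that passed the threshold of the authors, with scores of 830 or more. Its ranked counterpart, the ranked combined list, also holds candidate peaks below the threshold, 81275 peaks in all, with scores down to 34. Another pair of lists from both replicates, called conservative, holds 1077 thresholded and 78700 ranked peaks. The window of a gene reached from 1000 bp before its annotated start to 200 bp after it, and a gene had a peak when a summit fell inside. In the ranked combined list 65.5% of all protein-coding genes had one, so such a peak alone does not mark a gene as bound. No read counts were available, which leaves library depth unknown. All intervals are exact at the 95% level (Clopper-Pearson), taken over genes, and cover counting error only. Where a count is 0, the limit given is 3 genes divided by the number of genes examined.

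By position the 81 genes fell into 29 loci. There were 65 clustered core genes, which have another histone start within 5000 bp and lie in 14 loci. The others were 1 isolated core gene (his-73), 6 variant genes and 9 linker genes. RefSeq products named the histone for all but 2 genes (his-39 and his-73), giving 18 H2A, 16 H2B, 20 H3, 16 H4 and 9 H1 genes.

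LET-526 peaks of the optimal list were present at 7 histone genes, which belonged to every histone family. They were his-37 (H4), his-35 (H2A), his-41 (H2B), his-72 (H3.3), htz-1 (H2A.Z), hil-4 and his-24 (both linker H1). The share was 8.64% of the 81 histone genes (interval 3.55 to 17.0%), against 3.32% of all protein-coding genes. By class a peak was found at 3 of 65 clustered core genes (4.62%, interval 0.962 to 12.9%), 0 of 1 isolated core gene, 2 of 6 variant genes (33.3%, interval 4.33 to 77.7%) and 2 of 9 linker genes (22.2%, interval 2.81 to 60.0%). These class intervals overlap. The classes were not matched for how unique their windows are in the genome, by the measure described later. The median was 20.7% at clustered core genes and 100% at both variant and linker genes. All 40 histone genes with windows under 50% unique were clustered core genes, and 0 of them had an optimal peak. The 7 genes shared 6 peaks, because his-35 and his-41 have 1 peak in common, and neighbouring genes are not independent.

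The 7 genes differ from most other histone genes in their structure. Every one of them was among the 17 histone genes with 2 or more exons (7 of 17, 41.2%, interval 18.4 to 67.1%). None of the 64 histone genes with 1 exon had an optimal peak, which allows a share of up to 4.69%. That limit also counts 39 genes whose windows were under 50% unique in the genome, by the measure described later. Over the whole annotation the shares lay closer together. An optimal peak was present at 649 of 19288 protein-coding genes with 2 or more exons (3.36%) and at 15 of 685 with 1 exon (2.19%).

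A hairpin of 6 paired bases round a 4-base loop, starting with GG and ending with CC, was searched within 300 bp after the stop codon. Such a hairpin is of the form that ends replication-dependent histone mRNAs. It was found after 56 of the 81 histone genes, all of them clustered core genes with 1 exon, and it began 32 to 58 bp after the stop. The stem was the same in all 56, and the loop was cttt in 52 genes and ctta in 4 genes (his-52, his-54, his-22 and his-20). The 16 bases are shown for his-49, an H3 gene, and his-52, an H2B gene, with the paired bases in capitals, from chrV:8848410-8848425 and chrV:8850872-8850887 (both + strand).
his-49 hairpin: GGCCCTctttAGGGCC
his-52 hairpin: GGCCCTcttaAGGGCC
An optimal peak was present at 0 of the 56 genes with the hairpin (a limit of 5.36%) and at 7 of the 25 without it (28.0%, interval 12.1 to 49.4%). Of the 56, 36 had windows under 50% unique in the genome, by the measure described later, and 18 of these were 0% unique. No gene with a window 0% unique had a peak in any ranked list, and the limit counts those windows as well. A hairpin of the same form followed 47 protein-coding genes that are not histone genes. Of these 47, 3 had an optimal peak (6.38%), against 3.32% of all protein-coding genes.

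For 5 of the 6 optimal peaks, the DNA under the peak is shown for the part upstream of the gene's start. For his-35 and his-41 the whole stretch between the 2 starts is shown; their shared peak covers its last 94 bases and has its summit beyond it, in his-41. Capitals mark 3 short elements on either strand, which are TATAAA (the TATA box), CCAAT (the CCAAT box) and the letters GGGGACACA. Sequences were read from RefSeq's WBcel235 genome and are written 5′ to 3′ along the gene, or along the + strand for the pair.
his-37, chrV:9546923-9547104, + strand: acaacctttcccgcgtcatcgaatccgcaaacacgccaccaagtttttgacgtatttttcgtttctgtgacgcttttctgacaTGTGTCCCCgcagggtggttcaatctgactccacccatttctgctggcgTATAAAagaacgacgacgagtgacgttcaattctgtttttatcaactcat
his-35 and his-41, chrV:9545289-9545535, + strand: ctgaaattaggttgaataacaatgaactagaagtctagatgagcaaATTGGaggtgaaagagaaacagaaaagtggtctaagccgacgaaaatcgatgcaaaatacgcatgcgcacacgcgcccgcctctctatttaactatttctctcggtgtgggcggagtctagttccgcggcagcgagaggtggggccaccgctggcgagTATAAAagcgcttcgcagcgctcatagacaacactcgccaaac
hil-4, chrV:4754190-4754312, + strand: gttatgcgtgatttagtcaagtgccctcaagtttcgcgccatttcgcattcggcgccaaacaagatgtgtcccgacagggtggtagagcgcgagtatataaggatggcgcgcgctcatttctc
his-24, chrX:14489998-14490093, + strand: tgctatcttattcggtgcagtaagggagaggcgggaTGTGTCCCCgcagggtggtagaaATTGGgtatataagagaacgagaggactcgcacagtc
htz-1, chrIV:4445748-4446017, + strand: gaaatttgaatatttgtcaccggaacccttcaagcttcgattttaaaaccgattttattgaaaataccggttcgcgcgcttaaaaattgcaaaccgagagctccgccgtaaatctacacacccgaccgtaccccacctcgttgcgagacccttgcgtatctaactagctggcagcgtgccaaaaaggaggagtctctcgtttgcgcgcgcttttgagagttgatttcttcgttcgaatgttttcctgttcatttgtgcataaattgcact
his-72, chrIII:12369051-12369217, - strand: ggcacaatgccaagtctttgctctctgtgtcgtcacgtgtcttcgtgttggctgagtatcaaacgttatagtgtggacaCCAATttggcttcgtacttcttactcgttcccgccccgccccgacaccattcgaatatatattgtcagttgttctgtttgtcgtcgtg
For comparison, the stretches between the starts of 2 pairs without an optimal peak are his-6 with his-5 and his-50 with his-49, each an H3 and an H4 gene transcribed away from each other.
his-6 and his-5, chrV:8534978-8535213, + strand: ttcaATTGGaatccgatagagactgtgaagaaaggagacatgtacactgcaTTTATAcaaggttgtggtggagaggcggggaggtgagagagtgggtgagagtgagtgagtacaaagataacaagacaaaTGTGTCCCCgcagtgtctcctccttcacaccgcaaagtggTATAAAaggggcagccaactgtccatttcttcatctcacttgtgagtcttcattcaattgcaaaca
his-50 and his-49, chrV:8847705-8847942, + strand: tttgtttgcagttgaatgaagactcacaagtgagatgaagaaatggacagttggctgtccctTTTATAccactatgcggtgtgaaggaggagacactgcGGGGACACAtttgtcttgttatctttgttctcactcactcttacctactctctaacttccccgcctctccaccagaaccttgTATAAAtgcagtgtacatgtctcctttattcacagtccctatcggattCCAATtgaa

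GGGGACACA was chosen after these sequences were seen. Searched on both strands from 250 bp upstream to 50 bp downstream of the start, it was found at 34 of 81 histone genes (42.0%), against 57 of 19973 protein-coding genes (0.285%), of which 23 are not histone genes. Of the 34 genes, 31 had 1 exon, 33 were clustered core genes and 1 was a linker gene, and none was a variant. Among them, 32 lie in pairs of genes transcribed away from each other, where 1 occurrence can count for both genes. Some pairs are also identical copies, so the 34 genes stand for fewer distinct sites. The shares of the other letters below are counted per gene in the same way. Of the 34, 2 had an optimal peak, against 7 of all 81 histone genes. These 2 were his-37 and his-24, which carry the letters as TGTGTCCCC in the sequences above. Most of the 34 had windows under 50% unique in the genome, by the measure described later. Of the 40 histone genes with such windows, 0 had an optimal peak, so the count among the 34 cannot show whether peaks are scarcer at genes with the letters. Among the 23 genes that are not histone genes, 2 had an optimal peak, against 3.32% of all protein-coding genes. TATAAA was found at 63.0% of histone genes, against 37.9% of all protein-coding genes, and CCAAT at 53.1%, against 45.5%. GAGAGA was found at 43.2%, against 21.8%. TTTCCCGC, an E2F-type site, was found at 1 histone gene (1.23%), his-37, against 1.57%. ATTTGCAT, the octamer element of vertebrate H2B promoters, was found at 0 histone genes, against 2.86%. A match describes these letters and is not a measured site.

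The core genes with a peak were his-35, his-41 and his-37, which form 1 locus of 3 genes on chromosome V. The strongest peak at any histone gene lay at his-37, chrV:9546923-9547192, with its summit 47 bp upstream of the start in intergenic sequence. Its signal was 109, with a score of 1000, and it ranked 362 of 1200 by signal in the optimal list. It was the only histone peak in all 4 thresholded lists, with signals of 55.7 in replicate 1 and 69.3 in replicate 2. The 2 replicate summits lay 76 and 23 bp from the combined one. The peak at his-35 and his-41, chrV:9545442-9545711, had a signal of 83.1 and a score of 1000. Its summit lay 41 bp inside the 5′ UTR of his-41 and 289 bp upstream of his-35, and within the window of C50F4.6 too. Its signals were 40.2 in replicate 1 and 34.7 in replicate 2, and it was in the conservative list but in the list of neither replicate alone.

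**Figure D1:**
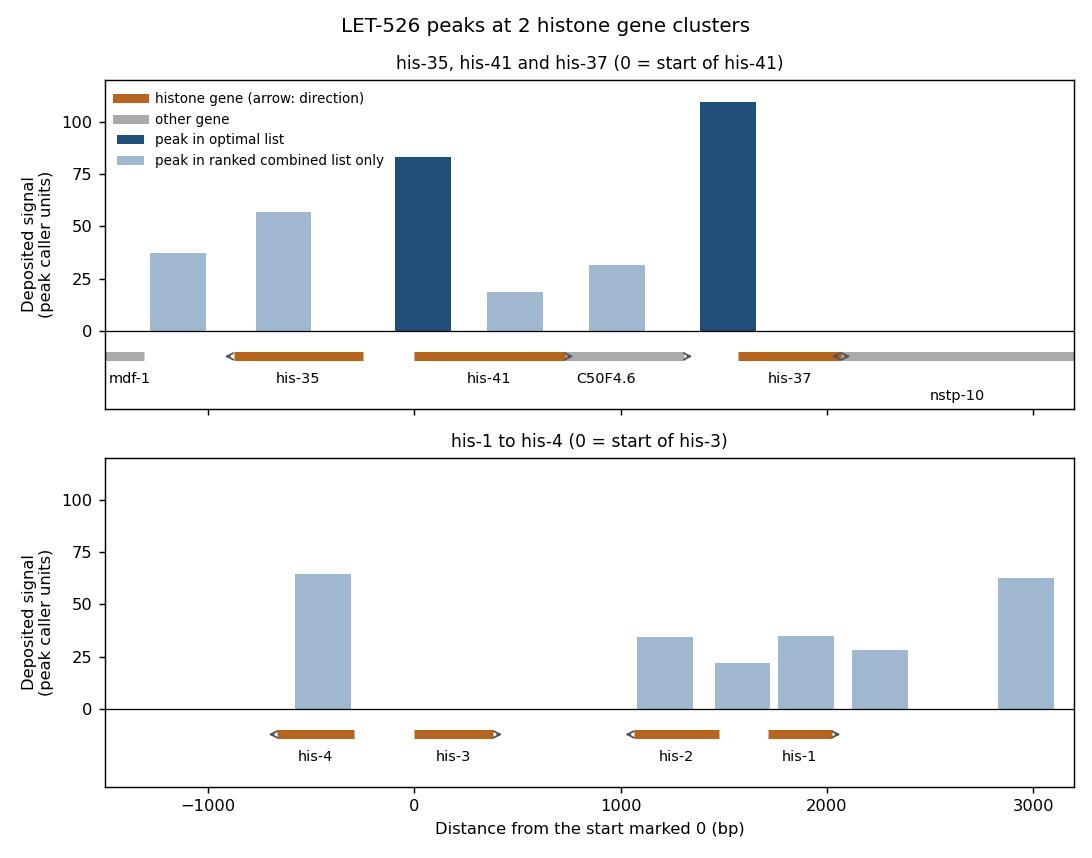
Deposited signal (y axis, peak caller units) of peaks along the his-35, his-41 and his-37 cluster (top) and the his-1 to his-4 cluster (bottom), against distance in bp from the start of his-41 or his-3. Dark bars are optimal peaks and light bars are ranked combined peaks below the threshold. The dark bars of the top map reach 83.1 and 109, while the tallest light bar of the bottom map, inside his-4, reaches 64.5.

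Among the variants, htz-1 and his-72 had optimal peaks. htz-1 encodes H2A.Z, which replaces H2A in nucleosomes near promoters. Its peak, chrIV:4445748-4446017, had a signal of 76.8 and a score of 1000, with 49.8 in replicate 1 and 33.6 in replicate 2. The summit was intergenic, 333 bp upstream of htz-1 and 143 bp upstream of wapl-1, a cohesin release factor gene whose start is 476 bp away on the other strand. The peak is thus in both windows and nearer to wapl-1. It was also in the conservative and replicate 1 lists. his-72 encodes H3.3, the replication-independent H3. Its peak, chrIII:12368948-12369217, had a signal of 65.6 and a score of 962, with 43.6 in replicate 1 and 28.2 in replicate 2, and it was in the optimal list only. The summit was 33 bp upstream of the longer annotated transcript and 919 bp upstream of the shorter one.

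The other 4 variant genes, all of the H3.3 type, had no optimal peak. his-70 had a ranked combined signal of 46.9 (score 88) with a summit 932 bp upstream of its start. his-69, his-71 and his-74 had no ranked combined peak. his-71 had a ranked peak of 20.5 in replicate 2 and none in replicate 1, and his-74 had one of 22.5 in replicate 1 and none in replicate 2. All 4 windows were at least 90.0% unique in the genome, by the measure described later.

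Among the linker genes, hil-4 and his-24 had optimal peaks. hil-4 encodes a linker H1 and had a peak at chrV:4754190-4754459 with a signal of 84.8 and a score of 988. The summit lay 12 bp inside its 5′ UTR, and the replicate signals were 44.6 in replicate 1 and 37.3 in replicate 2. his-24 encodes the linker histone H1.1, and its peak at chrX:14489998-14490267 had a signal of 72 and a score of 954. That summit lay 39 bp inside the 5′ UTR, in sequence also annotated as the noncoding RNA M163.19 on the other strand, whose start is 15 bp from the summit. Replicate 1 had 48.3 there and replicate 2 had 18.8, the lowest replicate value of the 6 peaks, and the peak was in the optimal list only. hil-3 (49.97, score 305), hil-1 (37.7, score 70) and hil-6 (22.7, score 34) had ranked combined peaks below the threshold. The score of hil-6 is the lowest in that list, and hil-6 had no ranked peak in either replicate. hil-2, hil-5, hil-7 and hil-8 had no peak in any ranked list. Outside the windows but within 5000 bp, optimal summits lay 1040 bp upstream of hil-1 (signal 80.2) and 2949 bp upstream of hil-3 (signal 99.9).

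Within the optimal list the histone peaks, other than that of his-37, were weaker than the median. The median over the 7 histone genes was 83.1, against 100.3 over the 664 protein-coding genes with an optimal peak. Between 1.36% (his-72) and 61.7% (his-37) of those genes were weaker than each histone gene. In the other thresholded lists the counts were 5 histone genes in the conservative list (3.16% of all protein-coding genes had a peak there), 2 in replicate 1 (1.83%) and 1 in replicate 2 (1.35%). The GC content of the 101 bp round the 6 summits was 46.5 to 55.4%, against a median of 49.5% at the 522 optimal summits in promoter windows.

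In the ranked combined list, which holds peaks above and below the threshold, 44 of 81 histone genes had a peak (54.3%), against 65.5% of all protein-coding genes. The median of the strongest signal was 43.2 over these histone genes, against 33.8 over all protein-coding genes with a peak. Among genes with no optimal peak, 37 of 74 histone genes had a ranked combined peak (50%), with a median of 38.4, against 12425 of 19309 protein-coding genes (64.3%), with a median of 32.9. The 44 genes shared 35 strongest peaks. The counts were 45 histone genes in the ranked conservative list, against 64.2% of all genes, 37 in ranked replicate 1, against 47.3%, and 39 in ranked replicate 2, against 50.1%. No histone gene outside the thresholded lists reached a score of 830.

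**Figure D2:**
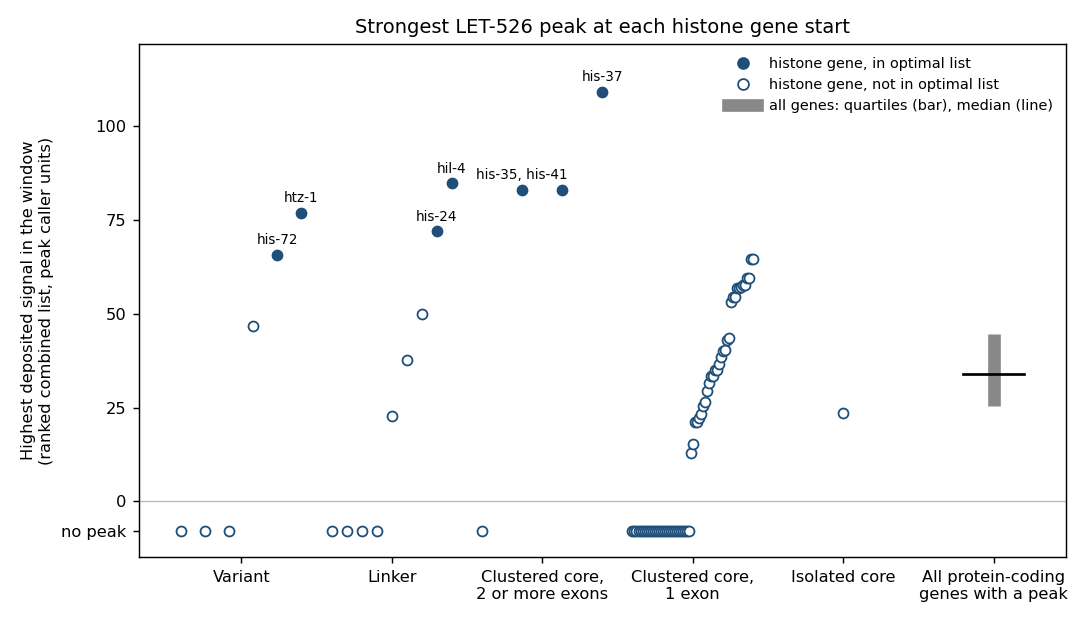
Highest deposited signal in each histone gene's window in the ranked combined list (y axis, peak caller units) by class; each point is 1 gene, filled where the gene has an optimal peak, and genes without a ranked combined peak are drawn under 0. The clustered core genes with 1 exon range from 13.0 to 64.5 and hold no filled point; the bar for all protein-coding genes with a peak runs from 25.3 to 44.5 with its median at 33.8.

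The 61 clustered core genes with 1 exon, of which 56 carry the hairpin, reached signals close to the weakest optimal peak at a histone gene but with lower scores. An optimal peak was present at 0 of 61 (a limit of 4.92%) and a ranked combined peak at 32 (52.5%). Of the 61, 22 had windows at least 50% unique in the genome, by the measure described later. Among these 22, 0 had an optimal peak (a limit of 13.6%) and 21 had a ranked combined peak. The strongest was shared by the H2B and H2A genes his-4 and his-3, with a signal of 64.5 and a score of 515, against 65.6 and 962 at his-72. At his-4 the replicates gave 36.3 in replicate 1 and 22.3 in replicate 2. The highest score below the threshold was at his-67 and his-68, H4 and H2A, with 704 and a signal of 59.5. There replicate 1 had 53.6 and replicate 2 had 27.8. Both values were within the ranges at the genes with optimal peaks, which were 40.2 to 55.7 in replicate 1 and 18.8 to 69.3 in replicate 2.

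The strongest ranked combined signals of the other clusters ran from 29.4 to 57.8. They were 57.8 (score 345) at his-6 and his-5, 57.2 (score 429) at his-63, and 56.8 (score 519) at his-31 and his-32. In the next clusters they were 53.2 (score 69) at his-60, 40.2 (score 148) at his-66, and 40.1 (score 81) at his-46. The lowest were 38.4 (score 162) at his-38, 36.6 (score 83) at his-42, 33.3 (score 82) at his-17 and his-18, and 29.4 (score 76) at his-58. The cluster of his-49 to his-54 had no ranked peak. The isolated core gene his-73 had a ranked combined signal of 23.6 (score 34, the lowest in that list) and no ranked peak in either replicate.

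Core genes were mostly arranged head to head. There were 31 such pairs, with starts 228 to 369 bp apart (median 259 bp), of which 16 joined an H2A and an H2B gene, 14 an H3 and an H4 gene, and 1 an H2A and an H4 gene. A ranked combined peak lay in the window of either gene for 19 pairs, and 9 pairs shared their strongest one. A ranked combined summit lay between the starts of 4 pairs, and an optimal summit between those of 0 pairs. Those 4 were his-8 with his-7 (54.5), his-17 with his-18 (33.3), his-61 with his-62 (25.3) and his-2 with his-1 (21.9). The count turns on a few bp at some pairs. The strongest combined summit lay 1 bp inside his-68 and 6 bp inside his-6. In each replicate a summit lay between or at the starts of his-67 with his-68 and of his-6 with his-5. In 8 pairs both windows were 0% unique in the genome, by the measure described below. Of the 35 strongest peaks, 3 lay between the starts of a pair, 12 in the coding sequence of a histone gene and 20 elsewhere.

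Many of these windows are near-identical copies of each other. The share of 50 bp words in a promoter window that occur once in the genome had a median of 55.1% over the histone genes, against 100% over all protein-coding genes, and a median of 20.7% over the clustered core genes. For 20 histone genes it was 0%, and none of the 20 had a peak in any ranked list. The same was true of the other 165 protein-coding genes with a share of 0%. The cluster of his-49 to his-54, chrV:8847393-8854053, is 6661 bp long and matches chrV:8889488-8896148, with his-27, his-28 and his-19 to his-22, with 0 mismatches over its 6 genes. The stretch between his-50 and his-49 printed above is therefore also that between his-28 and his-27. How the authors treated reads that align to several places is not given in the sources used here, and its part in these counts was not tested.

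Among the 40 histone genes with windows under 50% unique, 11 had a ranked combined peak and 0 an optimal peak (a limit of 7.5%). Among the 41 at or above 50%, 33 had a ranked combined peak (80.5%), against 66.7% of all protein-coding genes at or above 50%. Optimal peaks were present at 7 of these 41 (17.1%, interval 7.15 to 32.1%), against 3.38% of all such genes. The difference by exon number was also seen within this set, in which uniqueness still differed. Windows were 95.8 to 100% unique (median 100%) at genes with 2 or more exons. At genes with 1 exon they were 55.1 to 100% unique (median 88.9%). The counts that follow therefore do not separate exon number from uniqueness, and no comparison matched for uniqueness was made. An optimal peak was present at 7 of 16 genes with 2 or more exons (43.8%, interval 19.8 to 70.1%) and at 0 of 25 genes with 1 exon (a limit of 12%), although 23 of those 25 had a ranked combined peak. his-57, an H2A gene with 3 exons inside a repeated cluster, had a share of 4.34% and no ranked combined peak.

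**Figure D3:**
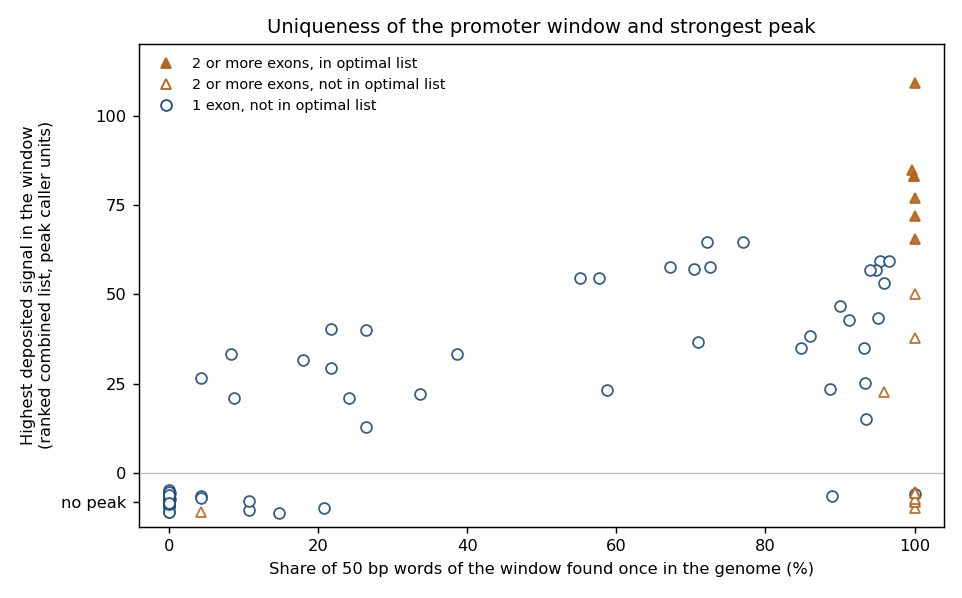
Highest deposited signal in the ranked combined list (y axis, peak caller units) against the share of 50 bp words of the promoter window that occur once in the genome (x axis, %), for the 81 histone genes; triangles have 2 or more exons, circles 1 exon, filled symbols an optimal peak, and genes with no peak are drawn under 0 with random vertical spread. Filled symbols lie at shares from 99.7 to 100%, and the 20 genes at 0% are all without a peak.

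The 2 replicates ordered the histone genes only partly alike. Both had a ranked peak at 33 genes, replicate 1 alone at 4, replicate 2 alone at 6, and neither at 38. Across the 33 genes, which shared 25 peaks of replicate 1, Spearman's rho was 0.572 and Pearson's r of the log10 signals was 0.639, against a rho of 0.418 over the 6223 protein-coding genes with a ranked peak in both. Genes are not independent replicates, and these values are descriptions. his-37 was the highest histone gene in both replicates.

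**Figure D4:**
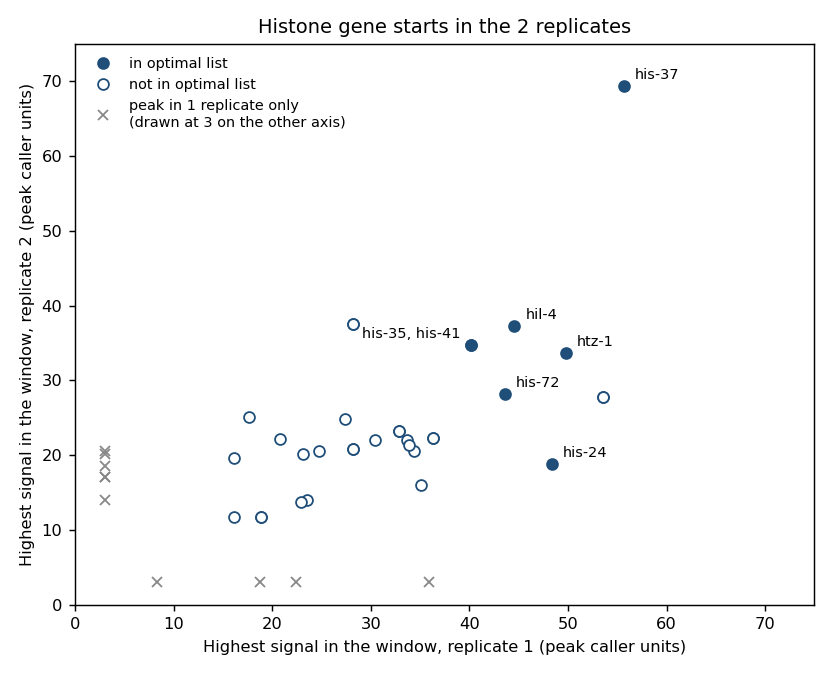
Highest deposited signal in each histone gene's window in replicate 1 (x axis) and replicate 2 (y axis), in peak caller units of each list; filled points have an optimal peak, and crosses are genes with a ranked peak in 1 replicate only. his-37 stands apart at 55.7 and 69.3, while his-24, at 48.3 in replicate 1 and 18.8 in replicate 2, lies low in replicate 2.

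Genes that handle histones and their mRNAs were counted in the same way. Of 15 genes for histone chaperones and deposition, 4 had an optimal peak (26.7%, against 3.32% of all protein-coding genes). They were unc-85 (127), an ASF1 chaperone of H3 and H4, lin-53 (120), an RbAp48 histone-binding protein, nasp-2 (118), a NASP chaperone, and chaf-2 (94.1), a subunit of the replication-coupled assembly factor CAF-1. The lin-53 peak is also in the window of nra-2, whose start is nearer, and that of chaf-2 in the window of Y71G12B.30. Of 8 genes for histone mRNA processing, 1 had an optimal peak, ego-1 (161), an RNA-directed RNA polymerase. Of 8 genes for the exchange of H2A.Z, 1 had one, ekl-4 (172), a DMAP1 homolog, in a window shared with rps-20. None of 3 variant genes outside the naming rule (hcp-3, cpar-1 and htas-1) had one. No test was made of these counts.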

How the data were processed

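ChIP-seq peaks were taken from 2 biological replicates of 1 group. The authors deposited lists on the ce11 assembly: thresholded and ranked lists for each replicate and for both together. Their signal values are the peak caller's own, per the file layout, and the deposited score, at most 1000, was checked against the IDR, which the authors gave as −log10: rounded to within 1, it was a fixed multiple of −log2 of the IDR for 99.9975% of 81275 ranked combined peaks. The lowest deposited score in the thresholded lists, 830, stands at a −log10 IDR of 2.00. The sources used here do not give the aligner, the peak caller, the read length or the treatment of reads that align to several places. Depth is unknown for want of read counts, and intervals cover counting error only. That the labels call the replicates biological is all that is known of how separate they were.

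Members and lists were chosen with earlier results of these data known, and no test of the members was made. Genes came from Ensembl release 115 (WBcel235); 36 members share an Ensembl symbol with another gene, so symbols and products were taken from RefSeq by WormBase ID, which matched all 81. Loci join starts within 5000 bp. Uniqueness is the share of 50 bp words of a window that occur once in the genome on either strand, which was tested on simulated sequence with planted copies, as was the placing of summits. The genes named are those with a thresholded peak, every variant, linker and isolated core gene, the strongest gene of each other cluster, and the genes with an optimal peak among the histone processing and deposition lists; others, such as his-57 and the pairs with summits between starts, were named after their values were seen. Alternatives were the other lists, each replicate alone, other windows and cluster distances, the nearest start only, overlap in place of the summit, and stronger peaks only. Analyses used Python 3.11.15, numpy 2.4.6, scipy 1.17.1 and matplotlib 3.10.9.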

Additional observations from a re-analysis of the deposited data

How the results depend on the processing

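Of 58 alternatives to 7 counts, 41 stayed within 1.5 times the count reported. The 41 include alternatives with little or no room to change. The isolated core class held 1 gene, and its count was 0 throughout. Variant and linker genes were classed by name, so the cluster distance could not move their counts. The 7 histone genes with an optimal peak became 1 to 2 with 1 replicate alone and 1 (his-37) with peaks above the median signal of the list. The 3 clustered core genes became 1 and 1 with either replicate alone and 1 above the median signal. The 2 variant genes became 1 in the conservative list, 0 to 1 with 1 replicate alone, 1 with each peak given to its nearest start, where the htz-1 peak goes to wapl-1, and 0 above the median signal. The 2 linker genes became 1 in the conservative list, 0 and 0 with either replicate alone, and 0 above the median signal. The replicate lists are called from fewer data than the optimal list, and the cause of the lower counts was not tested. The 44 histone genes with a ranked combined peak became 29 in a window of 500 bp upstream to 100 bp downstream and 23 with each peak given to its nearest start only. The 40 windows under 50% unique were 40 as well with words of 36 bp and of 100 bp. Counting only windows at least 50% unique was an alternative added after the data were seen. No paired analysis was possible because there was 1 group. Unknown depth limits every count of 0.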
